A study of Mus musculus with 6 samples.

Results

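The genes described here are 9 members of the *Atf4* and endoplasmic reticulum (ER) stress response: *Atf4*, *Ddit3*, *Trib3*, *Asns*, *Chac1*, *Sesn2*, *Ddit4*, *Xbp1* and *Hspa5*. They were chosen by symbol as a textbook list, with earlier results of these data known. These 9 of the 24223 genes counted all had enough reads to be tested. The data are RNA-Seq read counts from 6 mouse libraries, 2 each from Naive, Th17 and Th1 cells. Naive cells were unstimulated CD4+ T cells, purified as CD4+CD62L+ cells from pooled lymph nodes and spleens of C57BL/6 mice aged 1 to 2 months. Th17 and Th1 cells were grown from such cells until the fifth day of culture with antibodies to CD3 and CD28. The Th17 cultures also received TGF-β, IL-6, IL-1β and IL-23 with antibodies blocking IL-4 and IFN-γ, and the Th1 cultures received IL-12 and IL-2 with an antibody blocking IL-4. No genetic change was made in any group. Activation, time in culture and polarizing cytokines differ together between Naive cells and each culture and cannot be told apart, and the cultures were not stated to be sorted for cytokine-producing cells. A lower count in such bulk libraries can mean fewer cells of a type or less RNA per cell, which cannot be told apart.

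When unfolded proteins accumulate in the ER, the kinase PERK phosphorylates the translation factor eIF2, and related kinases do so on amino acid shortage, viral RNA or heme deficiency. General protein synthesis then falls while the *Atf4* mRNA is translated more, so that *Atf4* protein can rise with no change in its mRNA. *Atf4* is a bZIP transcription factor that activates genes of amino acid supply and stress adaptation, among them *Asns*, *Trib3*, *Chac1*, *Sesn2* and *Ddit3*. The other branches of the response start from the sensors Ire1, which splices a short intron out of the *Xbp1* mRNA, and *Atf6*, and both raise ER chaperones such as *Hspa5*. Activated T cells grow and divide quickly, with a high demand for amino acids and secretory capacity, and use these pathways in doing so. Gene counts report mRNA amount only and show neither *Atf4* protein nor *Xbp1* splicing.

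The DNA elements of both branches can be seen at the start of some of these genes. RefSeq promoter windows of GRCm38.p6, from 250 bases before the transcription start to 50 after it, were available for all 9 members and were searched on both strands for 3 published motifs. The core of the element bound by *Atf4* with C/EBP factors, written TGATGNAA, was found in *Chac1*, *Trib3* and *Asns*. It was present in 3.97% of all 32851 windows of that length. The ER stress response element (ERSE), CCAAT followed after 9 bases by CCACG, was found in *Hspa5* alone among the members and in 0.119% of all windows. The core of the unfolded protein response element, TGACGTGG, was in none of the members and in 0.676% of all windows. The matches are printed 5′ to 3′ on the strand of the gene, with the motif in capitals, because these elements are the textbook entry points of *Atf4* and of the *Atf6* and *Xbp1* branches. No match overlapped another motif.
Chac1: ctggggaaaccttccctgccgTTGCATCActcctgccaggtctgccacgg
Trib3: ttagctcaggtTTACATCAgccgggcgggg
Asns: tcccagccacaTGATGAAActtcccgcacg
Hspa5: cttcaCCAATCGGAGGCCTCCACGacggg
The *Chac1* stretch lies at chr2:119351028-119351077 on the plus strand, and its motif, on the opposite strand, spans positions -193 to -186 from the start. The *Trib3* stretch lies at chr2:152344028-152344057 on the minus strand, with the motif on the opposite strand at positions 15 to 22 after the start. The *Asns* stretch lies at chr6:7693214-7693243 on the minus strand, with the motif at -23 to -16. The *Hspa5* stretch lies at chr2:34772020-34772048 on the plus strand, with the ERSE at -65 to -47. Positions count from the RefSeq start, which differs from the start of the GENCODE gene model given next. The RefSeq start lies 120 bases inside the GENCODE model of *Hspa5*, 45 inside that of *Asns* and 13 inside that of *Chac1*, and 28 bases before that of *Trib3*. By the GENCODE models, the motifs of *Hspa5* and *Asns* therefore lie within the gene and those of *Chac1* and *Trib3* before it. A match in letters is a description of the sequence and no measurement of binding.

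All 9 genes are protein-coding in GENCODE vM21 on GRCm38. The regulator *Atf4* lies at chr15:80255184-80257541 on the plus strand, and *Ddit3* at chr10:127290774-127296288 on the plus strand. *Trib3* lies at chr2:152337422-152344032 on the minus strand and *Asns* at chr6:7675169-7693254 on the minus strand. *Chac1* spans chr2:119351229-119354381 on the plus strand, *Sesn2* spans chr4:132492032-132510501 and *Ddit4* spans chr10:59949669-59951834, the last 2 on the minus strand. *Xbp1* lies at chr11:5520659-5525893 and *Hspa5* at chr2:34771970-34777547, both on the plus strand. *Ddit3* overlaps a second locus of the same symbol and, at its ends, *Mars* and *Gm4189* on the opposite strand, and *Gm12981* lies within *Sesn2*. The sources differ on the strand setting used for counting. *Gm12981* and the second *Ddit3* locus lie on the same strand as the member they overlap. Reads from these overlaps therefore cannot be assigned with certainty.

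Total counts per library ranged from 17742158 to 69080017, and replicate 1 was between 3.38 and 3.77 times as deep as replicate 2 in each cell type, so low genes are measured less precisely in replicate 2. All 10 T cell markers examined exceeded 3 counts in every library. The summed level of 7 Th17 markers was 1530 and 1960 CPM (normalised counts, defined below) in Th17 and at most 51.2 CPM elsewhere, and that of 6 Th1 markers was 2020 and 1530 CPM in Th1 and at most 568 CPM elsewhere. Markers of other cells differed between libraries. The sum of 8 erythroid markers was 573 and 103 CPM in Naive and at most 2.15 CPM in the cultures, with the 4 globin genes listed at 0 in every library. The sum of 12 myeloid markers was 3350 and 3780 CPM in Th17. It was 44.7 and 65.1 CPM in Th1 and 360 and 215 CPM in Naive. *S100a8*, at 1150 and 1140 CPM, and *S100a9*, at 1040 and 1060 CPM, led it in Th17. *Mpo* went the other way, at 251 and 159 CPM in Naive against 68.1 and 58.7 CPM in Th17. *Elane* and *Csf1r* overlapped between Naive and Th17, and the other markers of the list were higher in both Th17 libraries. The sum of 7 mast cell and basophil markers was 225 and 441 CPM in Th17 and at most 78.8 CPM in Th1. It was 171 and 52 CPM in the Naive libraries. Of these markers, *Kit* was higher in Naive, at 99.8 and 29.6 CPM against 12.8 and 11.4 CPM in Th17. *Gata2* was highest in Naive replicate 1, at 32.6 CPM. The sum of 5 megakaryocyte and platelet markers was 266 and 469 CPM in Th17 and at most 73.2 CPM in any other library. The 6 markers of plasma cells, a cell type rich in *Xbp1*, moved in different directions, so their sum, between 57.7 and 131 CPM, does not describe them. *Igj*, the joining chain of secreted antibodies, was at 94.4 and 26.7 CPM in Naive, 3.32 and 3.62 CPM in Th17 and 0.619 and 0.759 CPM in Th1. *Irf4*, a factor that activated T cells also express, was at 15.5 and 19.3 CPM in Naive, 66.3 and 56.2 CPM in Th17 and 96.9 and 35.7 CPM in Th1.

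CPM are a gene's counts relative to the library total scaled by edgeR's TMM factors. Compared per kilobase (kb) of exon, the members spanned several orders of magnitude in level. In Naive cells the highest was *Ddit4*, with a mean level of 294 CPM per kb, followed by *Hspa5* at 86.0 and *Atf4* at 58.1 CPM per kb. *Xbp1* at 15.6, *Ddit3* at 10.6, *Asns* at 9.66, *Sesn2* at 3.47 and *Trib3* at 2.08 CPM per kb came next, and *Chac1* was lowest at 0.0179 CPM per kb. The 2 Naive libraries of *Asns*, at 2.01 and 17.3 CPM per kb, straddled its neighbours from *Xbp1* to *Trib3*, so its place in the order is not set. In Th17 the order of levels per kb was *Ddit4*, *Hspa5*, *Atf4*, *Xbp1*, *Ddit3*, *Trib3*, *Asns*, *Sesn2* and *Chac1*, with no overlap between neighbours. With the longest transcript as the length, *Trib3* at 6.91 to 7.93 and *Asns* at 6.09 to 7.3 CPM per kb overlapped in Th17. In Th1, *Hspa5* at 81.9 to 111 CPM per kb and *Ddit4* at 74.9 to 105 CPM per kb overlapped at the top, as did *Sesn2* and *Trib3* further down.

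**Figure D1:**
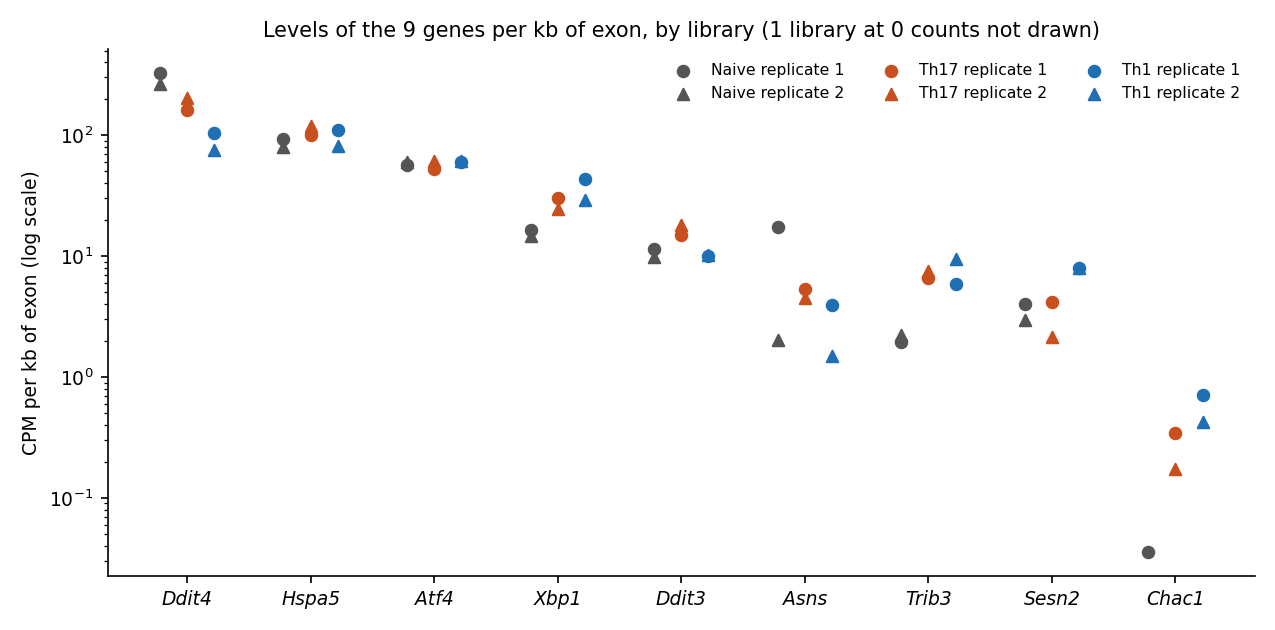
Level of each gene in each library, as CPM per kb of exon on a log axis, with genes ordered by their mean over the 3 cell types; circles are replicate 1 and triangles replicate 2. *Ddit4*, *Hspa5* and *Atf4* sit at the top and *Chac1* at the bottom, where the Naive library with 0 counts is not drawn, and the Naive points of *Asns* are far apart.

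*Atf4* mRNA varied least of the 9 members over these 6 libraries. Its level was 133.1 and 140.7 CPM in the Naive libraries, 124.4 and 143 CPM in Th17, and 142.5 and 142.6 CPM in Th1. The 6 libraries lay within a narrow band, in which Th17 overlapped both other groups. The log2 fold change fitted by edgeR was -0.03 for Th17 compared with Naive, with a standard error (SE) of 0.25 and an adjusted p of 0.94. The value was 0.06 (SE 0.25, adjusted p = 0.91) for Th1 compared with Naive and 0.09 (SE 0.25, adjusted p = 0.81) for Th1 compared with Th17. The 95% confidence intervals, from -0.58 to 0.51, from -0.49 to 0.61 and from -0.46 to 0.64, leave out a 2-fold difference in either direction. The sign of these values near 0 turned with the scaling and with the libraries left out.

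Throughout, a gene was called changed in a comparison when its p-value in edgeR's quasi-likelihood test, Benjamini-Hochberg adjusted over all 13607 genes tested, was under 0.01 and its log2 fold change exceeded 1 in size. Of the 9 members, 0 were called in Th17 compared with Naive by that test, while 4 had an unadjusted p under 0.05, against 33.3% of all genes tested, and DESeq2 called 1 (*Trib3*, higher), against 7.58% of all genes it tested called higher and 4.74% lower. Over all genes tested, 4.01% were called higher and 1.43% lower in Th17. In Th1 compared with Naive, 2 members were called: *Trib3* rose and *Ddit4* fell, against 4.64% of all genes called higher and 2.81% lower. An unadjusted p under 0.05 in edgeR was reached by 6 members in that comparison, against 29.9% of all genes tested. DESeq2 called 4 there, adding *Chac1* and *Xbp1*, both higher, against 7.67% of all genes higher and 5.67% lower. Between the cultures, 0 members were called by edgeR in Th1 compared with Th17, against 2.7% of all genes called higher and 2.83% lower. There 3 members had an unadjusted p under 0.05, against 33.8% of all genes, and DESeq2 called 2, *Sesn2* higher and *Ddit4* lower in Th1, against 6.72% and 6.52%. The 2 comparisons with Naive share the same Naive libraries and are not independent of each other.

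**Figure D2:**
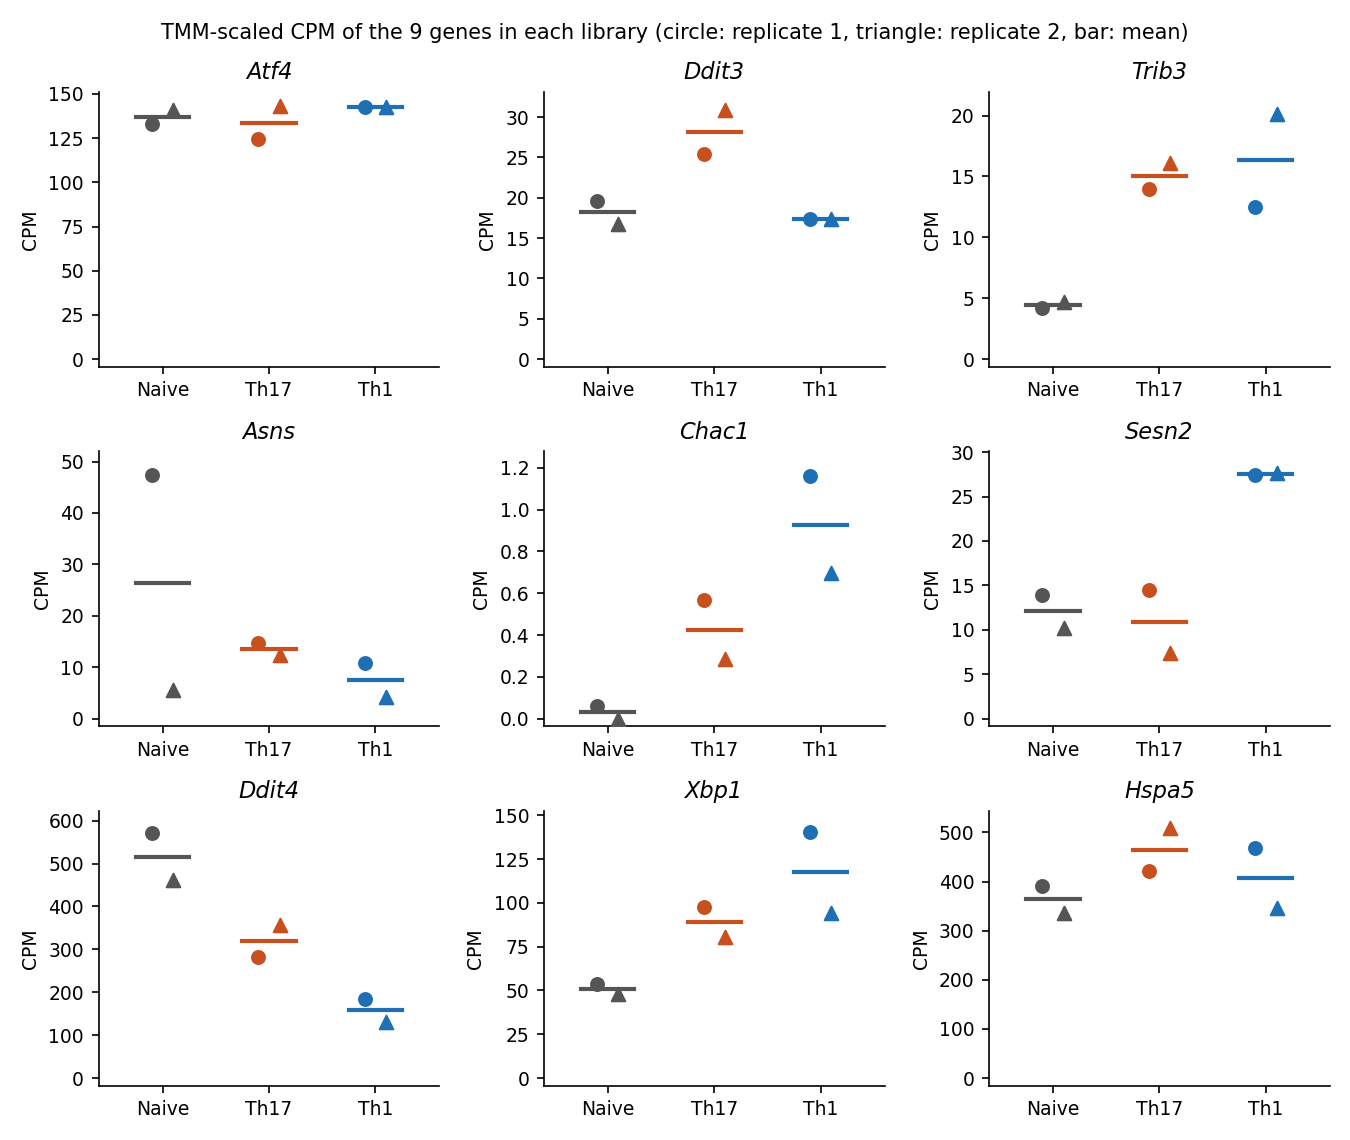
CPM of the 9 genes, on linear axes from 0 that differ between panels, with circles for replicate 1, triangles for replicate 2 and a bar at the mean of each cell type. *Trib3*, *Chac1* and *Xbp1* lie lower in both Naive libraries than in all 4 cultured libraries, *Ddit4* lies higher, *Atf4* is level, and *Sesn2* stands above the other groups in Th1.

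*Trib3* was one of the 2 members called. It encodes a pseudokinase that is induced by *Atf4* and *Ddit3* and feeds back on *Atf4* and on Akt. Its level was 4.154 and 4.704 CPM in Naive, 14 and 16.07 CPM in Th17, and 12.53 and 20.1 CPM in Th1. Both cultures lay wholly above Naive and overlapped each other. *Trib3* rose in Th1 compared with Naive by a log2 fold change of 1.88 (SE 0.37, 3.68-fold, adjusted p = 0.0073), with differences of 1.59 and 2.1 within replicates 1 and 2. For Th17 compared with Naive the value was nearly as large, 1.76 (SE 0.37, 3.4-fold), but its adjusted p of 0.012 missed the threshold. The cultures did not differ beyond their spread, with a log2 fold change of 0.11 and a 95% interval from -0.67 to 0.9. The Th1 call lost significance without Naive replicate 1, Naive replicate 2, Th17 replicate 1, Th17 replicate 2 or Th1 replicate 2, at adjusted p between 0.013 and 0.039 and log2 fold changes between 1.51 and 1.97. It also missed the threshold with scaling by library size alone (adjusted p = 0.017) and in a fit of only the 4 libraries compared (adjusted p = 0.02). The Th17 value passed with DESeq2 (adjusted p = 6e-05), with no filter on low counts (0.00039), with only the 4 libraries compared (0.0076), with the replicate number as a block in edgeR (0.0057) and without either Th1 library (0.0052 and 0.0084).

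*Ddit3*, also called CHOP, is a C/EBP family factor tied to the later, death-promoting phase of ER stress. Its level was 19.61 and 16.74 CPM in Naive, 25.42 and 30.83 CPM in Th17, and 17.34 and 17.39 CPM in Th1. Th17 lay above both other groups without overlap, while Naive and Th1 overlapped. The difference was not past the threshold in either case: the log2 fold change was 0.63 for Th17 compared with Naive (SE 0.29, adjusted p = 0.16) and -0.69 for Th1 compared with Th17 (SE 0.29, adjusted p = 0.13). For Th1 compared with Naive it was -0.07, with a 95% interval from -0.72 to 0.58. The Th17 libraries are also those with the high myeloid marker sums of 3350 and 3780 CPM. The marker sums of mast cells and basophils and of megakaryocytes and platelets were highest there too. Not every marker of these cells followed its sum, as *Mpo* and *Kit* were higher in Naive than in Th17. The part of these cells in the *Ddit3* level was not tested.

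Of the genes of amino acid and redox supply, *Asns* was dominated by a single library. *Asns* encodes asparagine synthetase and is a standard target of *Atf4* under amino acid shortage. Its level was 47.32 and 5.497 CPM in Naive, 14.72 and 12.28 CPM in Th17, and 10.78 and 4.109 CPM in Th1. Naive replicate 1 stood 8.61-fold above Naive replicate 2, and 0.603% of the tested genes differed more between those 2 libraries. Replicate 1 was also the higher one in Th17 and Th1, by 1.2-fold and 2.62-fold. The log2 fold change was -0.97 (SE 0.77, adjusted p = 0.4) in Th17 and -1.81 (SE 0.79, adjusted p = 0.16) in Th1, each compared with Naive. Without Naive replicate 1 the values turned to 1.3 (adjusted p = 0.16) and 0.45 (adjusted p = 0.67), and without Naive replicate 2 *Asns* was called lower in Th1 (-2.64, adjusted p = 0.0055). No direction can therefore be given for *Asns* against Naive.

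Other genes of the *Atf4* target list, named here after their values were seen, were also higher in Naive replicate 1. *Eif4ebp1*, an inhibitor of cap-dependent translation, had 77.72 and 14.61 CPM in the 2 Naive libraries, a ratio of 5.32, and *Pck2*, a mitochondrial PEP carboxykinase, had 113.8 and 48.88 CPM, a ratio of 2.33. Not all members of that list followed, as *Mthfd2*, a mitochondrial folate enzyme, had a ratio of 1.09. In the same library the erythroid marker sum was 573 CPM against 103 CPM in Naive replicate 2, led by *Car1* at 463 against 85.8 CPM and *Klf1* at 97.5 against 16.2 CPM. The plasma cell marker *Igj* was at 94.4 against 26.7 CPM, and the progenitor and mast cell receptor *Kit* was at 99.8 against 29.6 CPM. The part of these other cells in the *Asns* level was not tested.

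**Figure D3:**
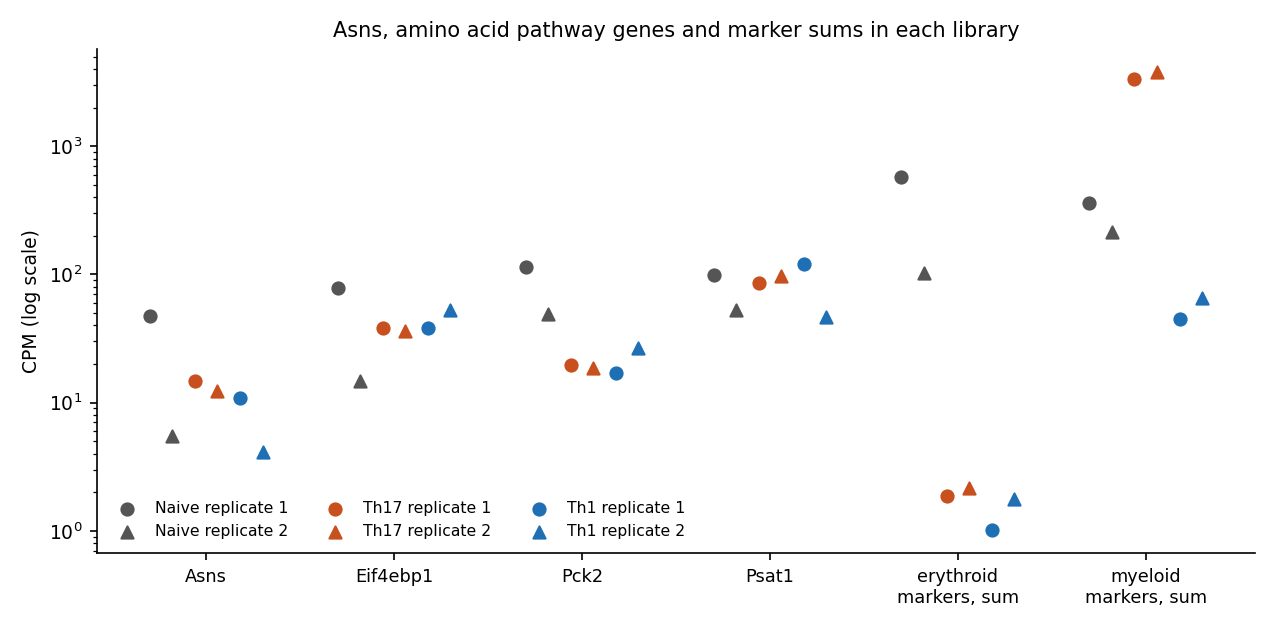
CPM on a log axis of *Asns*, 3 other *Atf4* target genes and the summed erythroid and myeloid markers in each of the 6 libraries, with circles for replicate 1 and triangles for replicate 2. Naive replicate 1 is the highest library for *Asns*, *Eif4ebp1*, *Pck2* and the erythroid sum, but not for *Psat1*, and the myeloid sum is highest in both Th17 libraries.

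*Chac1* encodes an enzyme that degrades glutathione and is induced by *Atf4* with *Atf3* and *Ddit3*. It was close to the limit of detection in Naive cells, with 4 and 0 counts, and had 37 and 5 counts in Th17 and 75 and 11 counts in Th1. Its Naive level was thus 0.05871 and 0 CPM, its Th17 level 0.5662 and 0.2829 CPM and its Th1 level 1.16 and 0.6954 CPM. Every cultured library lay above Naive and every Th1 library above Th17. Within replicate 1 the level was 9.64-fold higher in Th17 and 19.8-fold higher in Th1 than in Naive. Within replicate 2 it was at least 1.9-fold and at least 4.68-fold higher, taking 3 counts as the limit for the library with 0. The adjusted p was 0.046 for Th17 compared with Naive and 0.013 for Th1 compared with Naive, so neither passed the threshold. The Th1 value passed with DESeq2 (adjusted p = 0.0046), with no filter on low counts in edgeR (0.00059) and with the replicate number as a block in edgeR (0.0071). The fitted log2 fold changes of 3.33 and 4.42 depend on how the 0 is treated.

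*Sesn2* and *Ddit4* both restrain the growth kinase mTORC1, and Th1 was the highest group for *Sesn2* and the lowest for *Ddit4*. *Sesn2*, a leucine sensor that *Atf4* induces, was at 13.9 and 10.25 CPM in Naive, 14.43 and 7.411 CPM in Th17, and 27.43 and 27.63 CPM in Th1. The Th1 libraries were nearly equal and lay wholly above the other groups, which overlapped each other. The log2 fold change was 1.32 for Th1 compared with Th17 (SE 0.38, 2.5-fold, adjusted p = 0.042) and 1.19 for Th1 compared with Naive (SE 0.38, 2.27-fold, adjusted p = 0.059), neither past the threshold. DESeq2 called the first of these (adjusted p = 0.0072) and not the second (adjusted p = 0.017). For Th17 compared with Naive the value was -0.14, with a 95% interval from -0.97 to 0.7.

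*Ddit4*, also called REDD1, is induced by glucocorticoids and hypoxia as well as by *Atf4*. It was the most abundant member in Naive cells, at 570.8 and 461.9 CPM. It was at 281 and 357.3 CPM in Th17 and at 184.3 and 131.4 CPM in Th1, so the 3 groups did not overlap. *Ddit4* fell by 1.71 on the log2 scale in Th1 compared with Naive (SE 0.31, adjusted p = 0.0048), to 0.306 of the Naive level, and was lower in both replicates. The log2 fold change was -0.69 in Th17 compared with Naive (SE 0.3, adjusted p = 0.14), and -1.01 in Th1 compared with Th17 (SE 0.3, adjusted p = 0.047). The Th1 call lost significance without Naive replicate 1 (adjusted p = 0.021), Th1 replicate 1 (0.016) or Th1 replicate 2 (0.044), at log2 fold changes of -1.55, -1.93 and -1.48.

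The Ire1 branch factor *Xbp1* was at 53.72 and 47.84 CPM in Naive, 97.67 and 80.28 CPM in Th17, and 140.6 and 94.39 CPM in Th1. Both cultures lay above Naive and overlapped each other. The log2 fold change was 1.21 in Th1 (SE 0.28, 2.31-fold, adjusted p = 0.017) and 0.81 in Th17 (SE 0.28, 1.75-fold, adjusted p = 0.076), each compared with Naive, and 0.4 in Th1 compared with Th17 (95% interval from -0.22 to 1.02). DESeq2 called the Th1 value (adjusted p = 0.00092). Of the plasma cell markers, *Irf4* was also higher in all 4 cultured libraries, at 35.7 to 96.9 CPM against 15.5 and 19.3 CPM in Naive, while *Igj* was lower in all 4, at 0.619 to 3.62 CPM against 94.4 and 26.7 CPM. Their part in the *Xbp1* level was not tested.

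*Hspa5*, also called BiP, is the main ER chaperone and the usual readout of the *Atf6* branch, and carries the ERSE printed above. Its level was 391.1 and 336.7 CPM in the Naive libraries, 420.9 and 509.1 CPM in the Th17 libraries and 468.8 and 346.5 CPM in Th1. Th17 lay above Naive, and Th1 overlapped both. The log2 fold changes were 0.35 (SE 0.29, adjusted p = 0.42) in Th17 and 0.16 (SE 0.29, adjusted p = 0.76) in Th1, each compared with Naive, and -0.19 (SE 0.29, adjusted p = 0.67) in Th1 compared with Th17. The 95% intervals against Naive ran from -0.29 to 1 and from -0.48 to 0.81.

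**Figure D4:**
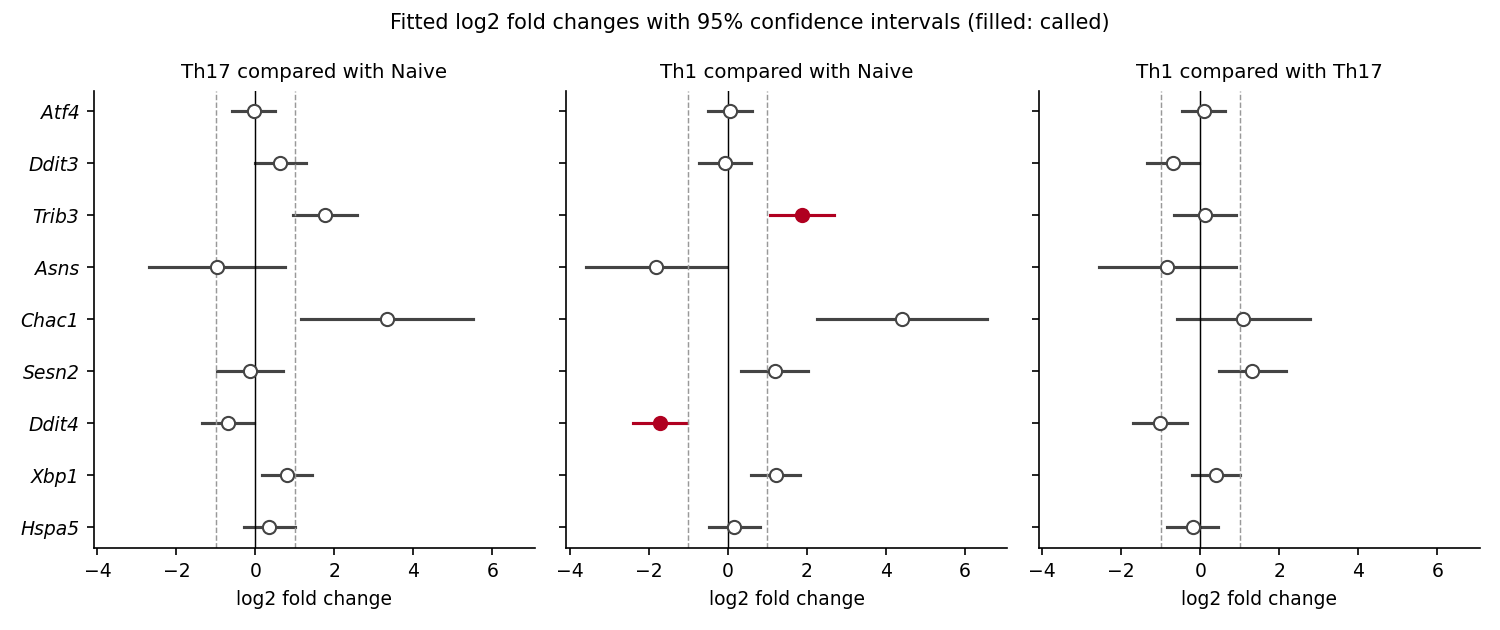
Log2 fold change of each gene in the 3 comparisons, with its 95% confidence interval as a bar, lines at -1 and 1, and filled red points for called genes. Only *Trib3* and *Ddit4* are filled, both in Th1 compared with Naive, and the bars of *Asns* and *Chac1* are the widest.

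Counting libraries without a model, 5 members had both Th17 libraries above both Naive libraries and 1 had both below, against 32.4% and 33.1% of all genes tested. In Th1 compared with Naive these were 5 above and 1 below, against 27.6% and 28.4%, and for Th1 against Th17 they were 2 above and 3 below, against 31.5% and 35.1%. The median log2 fold change over the 9 members was 0.35, 0.16 and 0.09 in the 3 comparisons, beside -0.02, -0.02 and -0.03 over all genes tested.

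To place the members in their pathways, 118 further genes were examined, of which 113 were tested. In Th17 compared with Naive 7 of them were called higher and 1 lower, in Th1 compared with Naive 5 were called higher and 0 lower, and in Th1 compared with Th17 1 was called higher and 1 lower. The shares over all genes tested were 4.01% higher and 1.43% lower, 4.64% and 2.81%, and 2.7% and 2.83% in the same order. With an unadjusted p under 0.05 there were 29, 23 and 32 of the 113 genes in the 3 comparisons, against 33.3%, 29.9% and 33.8% of all genes tested. DESeq2 called 8 higher and 5 lower, 7 higher and 2 lower, and 8 higher and 2 lower. Its shares over all genes it tested were 7.58% higher and 4.74% lower, 7.67% and 5.67%, and 6.72% and 6.52% in the same order. Beside these shares the counts are no result about the pathway genes as a whole, and the genes named next are described one by one. Most calls fell among 25 tested partners and further targets of *Atf4*, with 5 higher and 1 lower in Th17, and 3 higher in Th1, each against Naive. The median log2 fold change of that list was 0.15 and 0.2 in those comparisons, beside -0.02 in each over all genes tested.

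*Stc2*, a secreted glycoprotein induced by *Atf4*, was the clearest of them. Its level was 1.541 and 1.04 CPM in Naive, 12.76 and 10.41 CPM in Th17, and 92.81 and 116.5 CPM in Th1. The 3 groups did not overlap, and *Stc2* rose by a log2 fold change of 6.3 in Th1 (SE 0.37, adjusted p = 1.6e-05) and 3.13 in Th17 (SE 0.33, adjusted p = 0.00044), each compared with Naive. It also rose in Th1 compared with Th17, by 3.17 (SE 0.32, adjusted p = 0.00039).

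*Atf3*, a bZIP partner induced downstream of *Atf4*, had 4 and 1 counts in Naive and rose in both cultures. It was at 3.229 and 9.957 CPM in Th17 and 3.326 and 1.77 CPM in Th1 (adjusted p = 0.00093 and 0.0023 compared with Naive). *Vldlr*, a lipoprotein receptor, had 9 and 1 counts in Naive, and at 3.305 and 2.829 CPM in Th17 and 1.423 and 4.046 CPM in Th1 it rose in both (adjusted p = 0.0033 and 0.0034). Both genes were thus far above a Naive level of few reads. The Th1 call of *Atf3* was lost without Naive replicate 1 (adjusted p = 0.022), the Th17 call of *Vldlr* was lost without Naive replicate 1, Naive replicate 2 or Th17 replicate 1 (adjusted p between 0.013 and 0.018), and its Th1 call without either Naive library (0.018 and 0.012).

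*Slc7a11*, the cystine carrier of system xc-, was at 0.2055 and 0.1486 CPM in Naive, 3.55 and 20.48 CPM in Th17, and 0.3558 and 0.06322 CPM in Th1. It rose in Th17 compared with Naive (log2 fold change 5.98, SE 0.97, adjusted p = 0.0036) and was lower in Th1 than in Th17 (-5.53, SE 0.94, adjusted p = 0.0048). The Th17 libraries themselves differed widely, and without Th17 replicate 2 the values were 4.25 (adjusted p = 0.023) and -3.84 (adjusted p = 0.039). The first call was also lost without either Naive library (adjusted p = 0.022 and 0.014) and the second without either Th1 library (0.012 and 0.021). Marker sums of several other cells were highest in Th17 as well, at 3350 and 3780 CPM for myeloid cells. They were 225 and 441 CPM for mast cells and basophils and 266 and 469 CPM for megakaryocytes and platelets. Single markers such as *Mpo* and *Kit* were higher in Naive than in Th17. From Th17 replicate 1 to replicate 2 all the mast cell and basophil markers but *Kit* rose, by differing amounts. *Fcer1a* was at 11.2 and 53.9 CPM, *Cpa3* at 34 and 111 CPM and *Ms4a2* at 7.24 and 18.3 CPM. *Mcpt8* was at 66 and 119 CPM, *Prss34* at 80 and 110 CPM, *Gata2* at 14 and 18.7 CPM and *Kit* at 12.8 and 11.4 CPM. The part of these cells in the *Slc7a11* level was not tested.

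*Pck2* was the gene of the list called lower in Th17 compared with Naive, at 19.68 and 18.56 CPM against 113.8 and 48.88 CPM (log2 fold change -2.09, SE 0.41, adjusted p = 0.0096). Without Naive replicate 1 the log2 fold change was -1.35 (adjusted p = 0.045), and the call was also lost without either Th17 library (adjusted p = 0.056 and 0.059). *Nupr1*, a stress-induced chromatin protein, was also called higher in Th17 compared with Naive. It is named beyond the 5 genes per list fixed for naming, and its log2 fold change was 3.55 (SE 0.7, adjusted p = 0.0097), a call that was lost on leaving out any 1 of the 6 libraries (adjusted p between 0.011 and 0.081).

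In the sensor branches, *Atf6*, the membrane-bound factor cut free under ER stress, was the gene called of 13 tested. Its level was 23.63 and 19.46 CPM in Naive, 90.21 and 72.19 CPM in Th17, and 63.69 and 53.36 CPM in Th1. Both cultures lay well above Naive. *Atf6* rose over Naive on the log2 scale by 1.91 in Th17 (SE 0.28, adjusted p = 0.0019) and by 1.44 in Th1 (SE 0.27, adjusted p = 0.0062). The Th17 call was lost without Naive replicate 2 or Th17 replicate 1 (adjusted p = 0.012 and 0.017), and the Th1 call without either Naive library, either Th1 library or Th17 replicate 1 (adjusted p between 0.013 and 0.033).

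Among 25 ER chaperones and foldases, *Ero1l*, the oxidase that drives disulfide formation in the ER, was the gene called. It was at 37.09 and 38.92 CPM in Naive, 93.56 and 91.65 CPM in Th17, and 104.4 and 134 CPM in Th1. It rose over Naive on the log2 scale by 1.29 in Th17 (SE 0.25, adjusted p = 0.0095) and by 1.65 in Th1 (SE 0.26, adjusted p = 0.0024). The Th1 call was lost without Naive replicate 1 or Th1 replicate 2 (adjusted p = 0.017 and 0.014). The Th17 call was lost without either Naive library, either Th17 library or Th1 replicate 2 (adjusted p between 0.012 and 0.05). The median log2 fold change of this list was 0.34 in Th17 and 0.33 in Th1, each against Naive.

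Of the eIF2 kinases, eIF2, its exchange factor eIF2B and its phosphatases 17 genes were tested, and of ER-associated degradation 24. edgeR called 0 genes of either list in any comparison, beside 4.01% higher and 1.43% lower of all genes in Th17 compared with Naive, which comes to about 1 gene in lists of this size. In the first list 5 genes had an unadjusted p under 0.05 in Th17 compared with Naive and 3 in Th1 compared with Naive. In Th1 compared with Th17 there were 6. DESeq2 called 2 genes lower, 0 genes and 3 genes higher in the same order. The log2 fold changes of this list ranged from -2.17 to 0.93, from -0.95 to 0.86 and from -0.82 to 1.76. In the second list 5, 1 and 8 genes had an unadjusted p under 0.05, against 33.3%, 29.9% and 33.8% of all genes, and DESeq2 called 0 in each comparison, against 12.3%, 13.3% and 13.2%. The median log2 fold changes were -0.24, -0.03 and 0.08 for the first list and -0.02, 0.19 and 0.31 for the second.

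**Figure D5:**
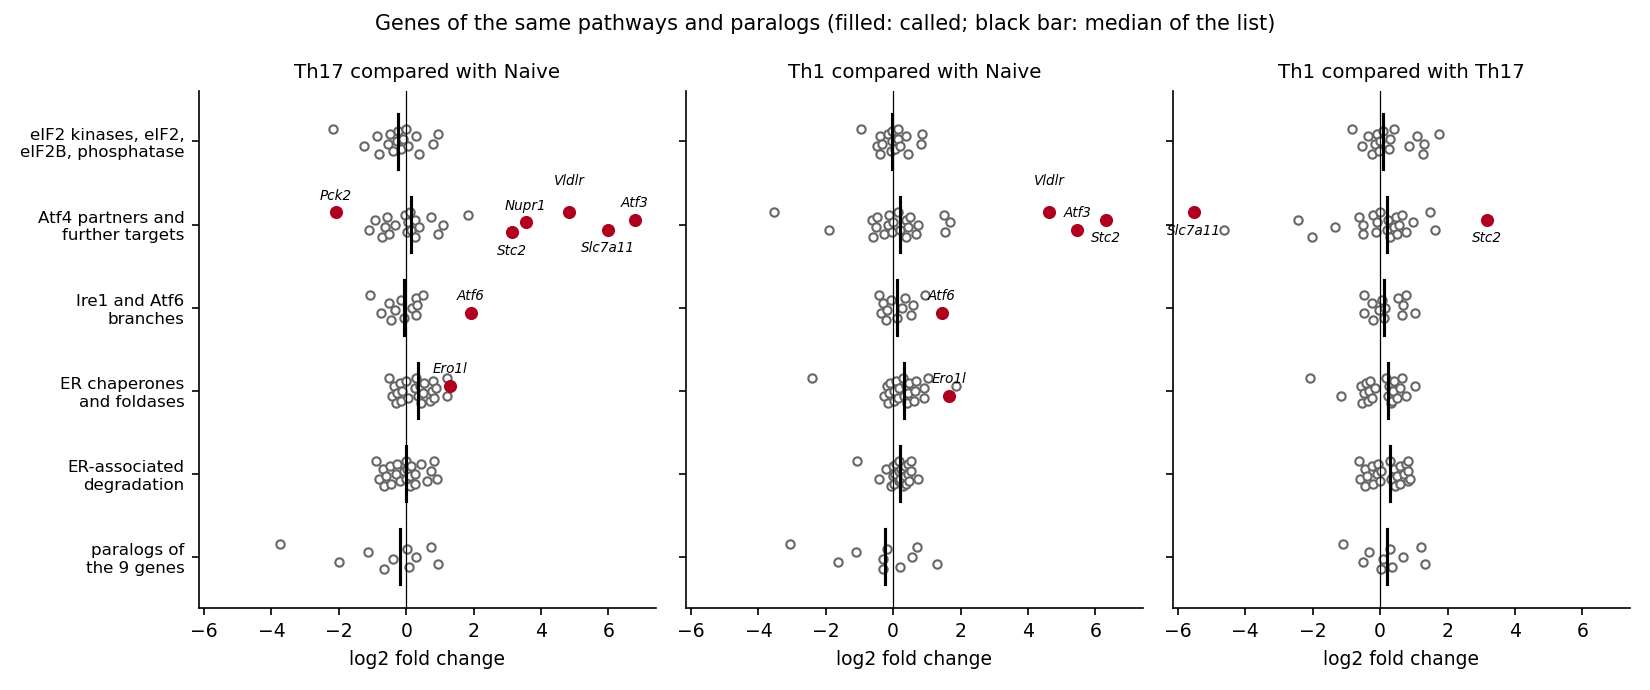
Log2 fold changes of the tested genes of 5 pathway lists and of the paralogs of the members in the 3 comparisons, with filled red points for called genes and a black bar at each list's median. Most filled points lie among the partners and further targets of *Atf4*, with *Atf6* and *Ero1l* as single calls in their lists, while the medians lie near 0.

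Of 10 paralogs of the members that were tested, edgeR called 0 in each comparison, with 2, 3 and 3 at an unadjusted p under 0.05 in Th17 compared with Naive, Th1 compared with Naive and Th1 compared with Th17, while DESeq2 called 1, 2 and 2, beside 12.3%, 13.3% and 13.2% of all genes. Their log2 fold changes ranged from -3.75 to 0.94, from -3.07 to 1.3 and from -1.1 to 1.34 in the 3 comparisons.

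Genes with the TGATGNAA core in their promoter window, other than the members, numbered 286 among those tested. Compared with Naive, 7.34% of these were called higher in the Th17 cultures and 6.29% in the Th1 cultures, beside 3.93% and 4.61% of the 10240 tested genes with any window, and their median log2 fold change was 0 and 0.12. Of the genes with TGATGNAA, 1.75% were called lower in Th17 and 1.4% in Th1, beside 1.4% and 2.65% of genes with any window. In Th1 compared with Th17, 3.5% were called higher and 4.55% lower, beside 2.63% and 2.78%. For 16 tested genes with the ERSE the median log2 fold change against Naive was -0.06 and -0.04, and 0% were called. Of 110 tested genes with TGACGTGG, 2.73% were called higher in Th17 and 1.82% in Th1, each against Naive. These lists were drawn up after the values of the members had been seen and were not tested.

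The genes whose pattern over the 6 libraries was nearest to that of a member were found by the root mean square difference of log2 CPM, each gene centred on its own mean. Nearest to *Atf4* were *Cggbp1*, *Stk26* and *Pttg1*, with differences of 0.0315, 0.0434 and 0.0503. Nearest to *Trib3* were *Myo3b*, *Endou* and *Tasp1*, at 0.0804, 0.104 and 0.154. Nearest to *Ddit4* were *Gramd1c*, *Zfp937* and *Wrb*, at 0.0966, 0.15 and 0.162. Among the members themselves, *Atf4* and *Hspa5* were the closest pair, at 0.226, and *Chac1* and *Ddit4* the most distant, at 2.29.

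For a single gene, a two-sided exact permutation test over these groups of 2 libraries has 0.333 as its smallest possible p, so every p-value above comes from the model across all genes. Intervals and limits of detection cover the spread between these libraries and counting error, and reads without molecular identifiers are not independent molecules.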

How the data were processed

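The RNA-Seq count tables cover 2 Naive, 2 Th17 and 2 Th1 libraries from mouse, which the study describes as independent biological replicates. As deposited, the values are whole-number counts of reads per gene without normalization; per the study's methods, the authors aligned reads to mm10 with Hisat2 (v2.2.1), removed duplicates and counted with HTSeq (v0.13.5). The methods name default HTSeq parameters and the supplementary code a reverse-stranded setting, so the strand setting is not settled. That code also shows no step removing duplicates, so whether the counted reads exclude them is not settled either.

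Counts were analysed in R (v4.3.3) with edgeR (v4.0.16): filterByExpr kept 13607 of 24223 genes, TMM factors (0.862 to 1.09) scaled the libraries, and glmQLFit and glmQLFTest were run in a single model with cell type as the only term. P-values were Benjamini-Hochberg adjusted over all genes tested, and SE is the absolute log2 fold change over the square root of F. Centred log2 CPM used a prior count of 2, and 3 counts were taken as the limit of detection. Alternatives included DESeq2 (v1.42.0), other scalings, filters and thresholds, the replicate number as a block, thinning to 17742158 counts, and leaving out each library. Gene positions and exon lengths came from GENCODE vM21, promoter windows from RefSeq.

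The 9 members, the pathway lists and the marker lists were chosen with earlier results of these data known. The genes named are the members, at most 5 called genes per pathway list and comparison with the smallest adjusted p, the range of the paralogs, and the 3 genes nearest in pattern to *Atf4* and to each called member. No columns of other samples were present, and figures were drawn with matplotlib.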

Additional observations from a re-analysis of the deposited data

How the results depend on the processing

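The log2 fold changes of the members were recomputed under 17 alternatives fixed together with the gene lists and 1 chosen after seeing the data. Of these values, 411 kept their direction and their side of the threshold, 26 passed it newly, 10 no longer passed it and 18 changed sign, and the cause was not tested.

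The counts of members called, 0 (Th17 against Naive), 2 (Th1 against Naive) and 0 (Th1 against Th17), became 1, 4 and 2 with DESeq2, 1, 5 and 1 with no filter on low counts, and 2, 4 and 2 at an adjusted p under 0.05. The counts of pathway genes called, 8, 5 and 2, became 13, 9 and 10 with DESeq2, 15, 9 and 11 with no filter, 14, 9 and 11 at an adjusted p under 0.05, and 2, 3 and 1 with at least 10 counts in every library, where fewer genes were tested. Library size alone left 1 member called in Th1 compared with Naive and 5 pathway genes in Th17 compared with Naive, with a shift of the median of all genes to -0.26 for Th1 compared with Naive and -0.24 for Th1 compared with Th17. There *Atf4* came to -0.19 and *Hspa5* to -0.07 in Th1 compared with Naive, and *Atf4* to -0.12 and *Trib3* to -0.11 in Th1 compared with Th17. With only the 4 libraries compared, 1 member was called in Th17 and 1 in Th1, each compared with Naive. *Atf4* in Th17 compared with Naive came to 0.02 with at least 10 counts, 0.02 after thinning and 0.01 with the 4 libraries, and thinning left 1 pathway gene in Th1 compared with Th17.

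With library size alone, *Atf6* in Th1 (adjusted p = 0.023) and *Ero1l*, *Nupr1* and *Pck2* in Th17 (adjusted p = 0.014 each), compared with Naive, were no longer called.

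Over all genes tested, the counts called, 739, 1014 and 752 in the 3 comparisons, were 1738, 1928 and 1824 with DESeq2, 2154, 2259 and 2232 with no filter, 343, 674 and 411 with at least 10 counts, 1517, 1796 and 1635 with DESeq2 and the replicate block, and 2063, 2164 and 2112 at an adjusted p under 0.05.

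Deviations of same-numbered libraries correlated at -0.231 between Naive and Th17, 0.168 between Naive and Th1 and 0.0766 between Th17 and Th1. Such correlations cannot settle whether same-numbered libraries share a source or batch. Replicate 1 was the deeper library in each cell type. With the replicate number as a block in edgeR, 1 member was called in Th17 compared with Naive, *Trib3*, and 3 in Th1 compared with Naive, where *Chac1* was added. DESeq2 with the replicate block called 1, 3 and 1 members in the 3 comparisons, and 14, 8 and 9 pathway genes in the 3 comparisons. Swapping the Th17 numbers in the block, chosen after seeing the data, also called 1 member.

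Each fit without 1 library assumes that the remaining library of that cell type varies like the others. Leaving out each library in turn gave 0 to 1 members called in Th17 compared with Naive and 0 to 2 in Th1 compared with Naive, and 3 to 8, 2 to 5 and 1 to 2 pathway genes in the 3 comparisons. Across these fits *Atf4* ranged from -0.14 to 0.07, *Asns* from -1.82 to 1.3 and *Sesn2* from -0.7 to 0.25 in Th17 compared with Naive. *Ddit3*, in Th1 compared with Naive, ranged from -0.18 to 0.05, *Asns* from -2.64 to 0.45 and *Hspa5* from -0.03 to 0.37, and in Th1 compared with Th17 *Atf4* ranged from -0.01 to 0.2, *Trib3* from -0.25 to 0.42 and *Hspa5* from -0.43 to 0.02.

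Levels per kb moved by more than 1.5 times for *Ddit3* and *Xbp1* when the longest transcript was taken as the length, for example from 16.4 to 29.0 CPM per kb for *Ddit3* in Th17 and from 27.4 to 41.8 for *Xbp1* there. The depth of replicate 2 limits *Chac1*, for which 3 counts correspond to between 0.149 and 0.19 CPM in those libraries.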
